A study of Mus musculus with 10 samples.

Results

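The 10 genes described here are the chemokines CXCL1, CXCL2, CXCL3, CXCL8, CCL5 and CCL20, the interleukins IL6, IL1A and IL1B, and LIF, a cytokine of the IL6 family. They were chosen by name, and all 10 were found among the 35395 gene identifiers of the authors' deposited table, by the symbol printed after each identifier. The labels describe RNA sequencing of epididymal white adipose tissue, a visceral fat depot, from C57BL/6 males in 4 groups. Ad-IGF2 (2 samples) and Ad-GFP (3 samples) were adenoviruses with a CMV promoter cassette that carried IGF2, a fetal growth factor, or GFP alone. They were injected into the fat of DIO mice 2 times a week for 4 weeks. IGF2-RNAi (2 samples) and NC-RNAi (3 samples) were lentiviruses with an IGF2-directed or a control hairpin, given by tail vein to mice 3 to 4 weeks old. The labels give 6 injected mice per group and do not say how they relate to the samples.

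The table could not be tied to these groups. All 35395 identifiers are human and 0 occur in the mouse annotation, its 4 comparisons carry no names, and 0 of the 24 value columns belong to a named sample. The comparisons are numbered here by their position in the table, and nothing below is a statement on IGF2 or on mouse fat. Fold changes, standard errors and p-values are those of the authors' deposited table, and a gene is called higher or lower in the numerator at a deposited adjusted p under 0.05.

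Chemokines are small secreted proteins that direct the migration of leukocytes through receptors coupled to G proteins. CXCL1, CXCL2, CXCL3 and CXCL8 draw neutrophils through CXCR2, CCL5 draws T cells and monocytes, and CCL20 is the ligand of CCR6. IL1A and IL1B signal through IL1R1 to the transcription factor NF-kB, which induces most of these chemokines and IL6, while IL6 and LIF signal through the shared receptor chain IL6ST to STAT3. In adipose tissue these genes are known mainly as products of the macrophages and preadipocytes of inflamed fat. Mice have no CXCL8 gene.

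Reads per library were recovered from the base means, since every read of a library adds the same fixed step to a base mean. For 12935 of 12935 genes with a base mean of 10 to 2000 in every comparison, 1 set of whole reads gave all base means and fold changes. The table rests on 8 libraries in 4 sets of 2. Numerator set A stands in the first and the second comparison and numerator set B in the third and the fourth. Reference set R stands in the first and the third comparison and reference set S in the second and the fourth, so that comparisons share libraries. Levels below are reads divided by the size factor of the library, called normalised reads, on a scale common to all 8 libraries. Size factors ran from 0.670 in library B2 to 1.53 in library A1. They show relative depth, and the summed base means of a comparison lay between 14705083 and 20065481. The 2 libraries of set A stood further apart than those of other sets: 20.3% of genes differed over 2-fold between A1 and A2, against 2.91% in set B, 6.03% in set R and 4.47% in set S. Nothing says whether the libraries of a set came from separate animals or cultures, so the deposited p-values measure the spread between libraries, which may be technical.

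Markers of fat were near 0 in every library. ADIPOQ, which encodes adiponectin, had 2 and 1 reads in set B, 0 and 1 in set A, 0 and 1 in set R and 0 and 0 in set S. PTPRC, the pan-leukocyte antigen, had between 0 and 6 reads per library. KRT18, a keratin of simple epithelium, had 1648 and 1561 reads in set B, 5170 and 2970 in set A, 4630 and 3318 in set R and 3312 and 4313 in set S. Other epithelial markers were near 0, with 0 to 7 reads per library for EPCAM and 1 to 10 for CDH1. Over the adipocyte list, of which 6 of 7 markers had reads recovered for all sets, summed normalised reads were 31.3 to 47.3 in set B, 6.54 to 15 in set A, 4.90 to 6.69 in set R and 11.2 to 19 in set S. The defining markers of the labelled tissue were thus nearly absent.

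Set B was high for 4 of the 10 genes. CXCL8, IL6, CCL5 and IL1A were called higher against both reference sets, by 2.15-fold to 38.6-fold against set R and by 4.36-fold to 11.1-fold against set S in the authors' deposited table. IL1B and LIF were called lower in the third comparison only, a difference between comparisons that was not tested. Of the 8 genes with an adjusted p, 4 were thus higher and 2 lower in the third comparison, where 14.8% of all tested genes were called higher and 16.1% lower. In the fourth comparison 4 were higher and 0 lower, against 17.2% and 17.5% of all tested genes. CXCL3 and CCL20 were called in no comparison. None of the 8 genes was called in the first or the second comparison, where 0.0516% and 0.82% of all tested genes were called in either direction. The median of the 8 genes was 1.02 on the log2 scale in the third comparison and 1.48 in the fourth, against 0.09 and 0.08 over all tested genes. Among genes of at least 2 CPM (the base mean scaled to the summed base means of its comparison), the median gene lay at -0.16 in the third comparison and -0.15 in the fourth.

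**Figure D1:**
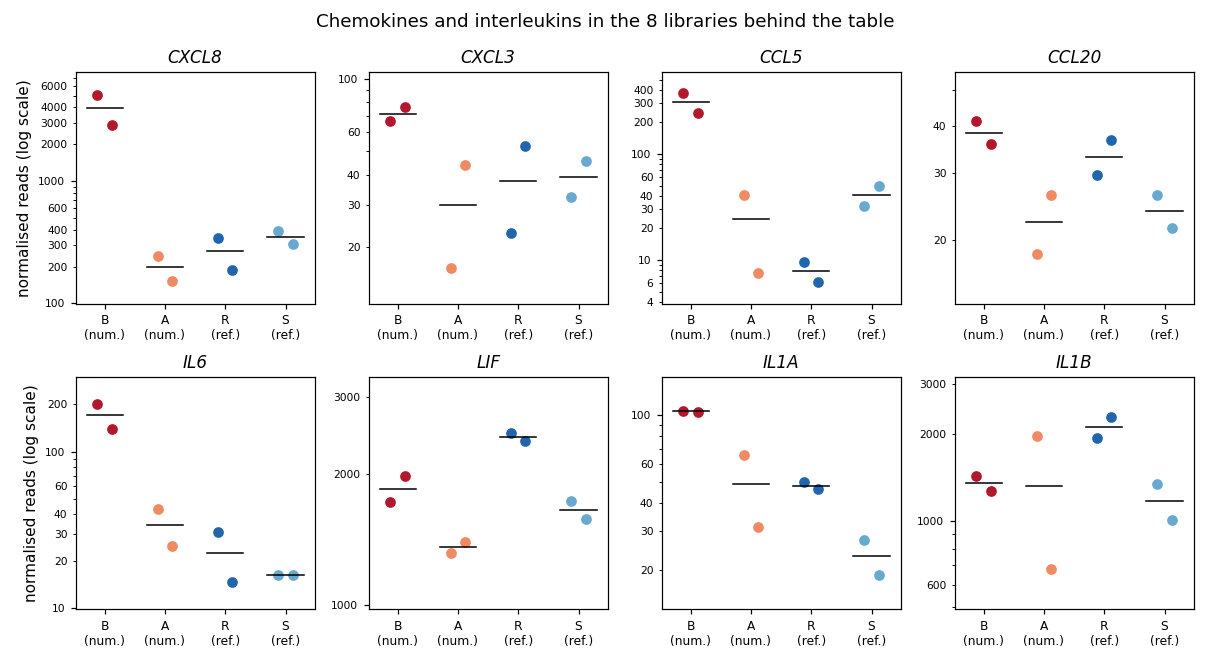
Normalised reads (log scale) of 8 chemokine and cytokine genes in each of the 8 libraries, with numerator sets B and A left of reference sets R and S. Points are libraries and bars are means of 2 libraries; both B libraries lie above all others for CXCL8, CXCL3, CCL5, IL6 and IL1A, and both R libraries lie above all others for LIF.

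Ordering of the libraries gives the same data without a model. Both B libraries lay above both R libraries for 5 of the 8 genes (CXCL8, CXCL3, CCL5, IL6 and IL1A) and above both S libraries for 6, CCL20 being the addition. Over all 12935 genes with recovered reads the shares were 34.2% against R and 35.3% against S.

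Among the chemokines that signal through CXCR2, CXCL8 was the one that was called. CXCL8 had 5044 and 2872 normalised reads in set B, 243 and 154 in set A, 344 and 188 in set R and 392 and 304 in set S. Set B stood far above the other 6 libraries, which all lay within 154 to 392. The authors' deposited table gives a log2 fold change of 3.89 (SE 0.57, adjusted p = 3.61e-10) in the third comparison and of 3.48 (SE 0.26, adjusted p = 1.81e-39) in the fourth. For set A the authors' deposited table gives CXCL8 -0.42 (SE 0.45, adjusted p = 1.0) against set R and -0.80 (SE 0.41, adjusted p = 0.547) against set S. Both A libraries lay below both S libraries.

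CXCL3, a close relative of CXCL1 and CXCL2, was not called in any comparison. CXCL3 had 66.7 and 76.1 normalised reads in set B, 16.3 and 43.8 in set A, 22.9 and 52.6 in set R and 32.5 and 45.6 in set S. Both B libraries were the highest, but the pairs within A and R differed by 2.68-fold and 2.29-fold. The authors' deposited table gives CXCL3 0.93 on the log2 scale (95% interval -0.19 to 2.05, adjusted p = 0.226) in the third and 0.83 (-0.21 to 1.87, adjusted p = 0.228) in the fourth comparison. Those intervals include 0 and also a rise of over 3-fold. Left without library R2, the third comparison gave a log2 ratio of 1.64 for CXCL3, and without R1 it gave 0.44.

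CXCL1 and CXCL2 were at the limit of detection. CXCL1 had 1 and 1 reads in set B, 0 and 2 in set A, 0 and 1 in set R and 1 and 1 in set S. CXCL2 had 0 and 1 reads in set B, 0 and 1 in set A and 1 and 1 in set S, and no row in the first and the third comparison. Neither has an adjusted p, and no fold is given, since no set holds more than 2 reads. CXCL1, CXCL2 and CXCL3 are close copies of one another, and reads shared between them may have been dropped or split in counting, so their levels are uncertain.

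CCL5 had the highest fold of the 8 genes in the third comparison, and it was also the one on which the 2 reference sets stood furthest apart. CCL5, the chemokine RANTES, had 374 and 242 normalised reads in set B, 41.2 and 7.50 in set A, 9.56 and 6.12 in set R and 32.5 and 49.3 in set S. Both B libraries were the highest and R2 the lowest, A1 lay within the range of set S, and A2 within that of set R. The mean of set R was 5.22-fold below that of set S, a difference that was not tested. The log2 fold change of CCL5 in the authors' deposited table was accordingly 5.27 (SE 0.51, adjusted p = 8.81e-23) against set R and 2.88 (SE 0.39, adjusted p = 4.87e-12) against set S. The R libraries held 10 and 5 reads of CCL5, so that the fold in the third comparison rests on few reads.

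For set A, CCL5 depended on 1 library. Its deposited log2 fold change was 1.65 (SE 1.11, adjusted p = 1.0) in the first and -0.72 (SE 0.84, adjusted p = 0.87) in the second comparison of the authors' deposited table. Without A1 the log2 ratio of CCL5 from recovered reads was -0.06 in the first comparison and -2.44 in the second.

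CCL20, which attracts CCR6-bearing T cells and dendritic cells, was not called in any comparison. CCL20 had 41.2 and 35.8 normalised reads in set B, 18.3 and 26.3 in set A, 29.6 and 36.7 in set R and 26.2 and 21.5 in set S. Sets B and R overlapped, while B lay above S. The authors' deposited table gives CCL20 0.22 (95% interval -1.04 to 1.48, adjusted p = 0.85) in the third and 0.66 (-0.67 to 1.99, adjusted p = 0.494) in the fourth comparison, so that changes over 2-fold upwards were within both intervals.

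**Figure D2:**
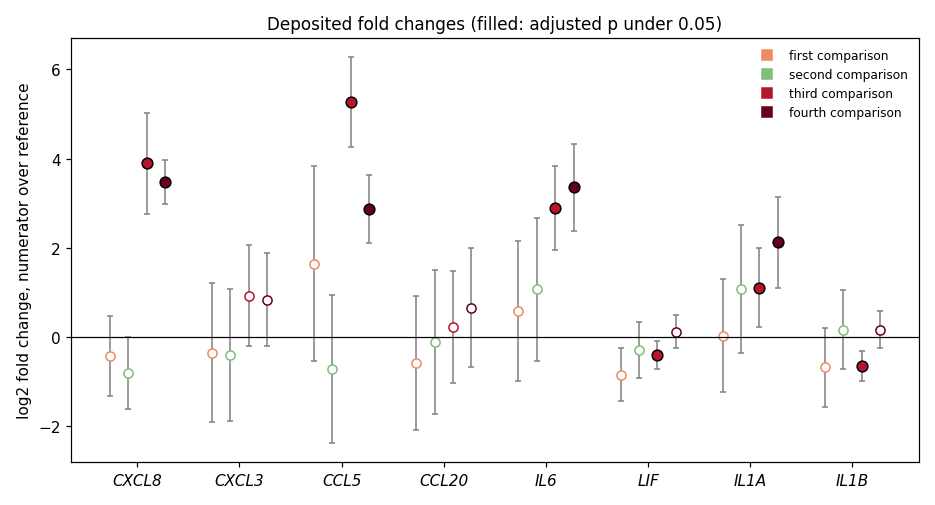
Deposited log2 fold change, numerator over reference, of 8 genes in the first to the fourth comparison, with bars for the 95% interval (from the deposited standard errors). Filled points have an adjusted p under 0.05: CXCL8, CCL5, IL6 and IL1A in the third and the fourth comparison, and LIF and IL1B below 0 in the third.

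Of the IL6 family, IL6 was called higher and LIF was not. IL6, the pleiotropic cytokine of the acute-phase response, had 201 and 140 normalised reads in set B, 43.1 and 25 in set A, 30.6 and 14.7 in set R and 16.2 and 16.4 in set S. Both B libraries stood above the other 6, and set A lay above set S without overlap. The authors' deposited table gives IL6 2.90 on the log2 scale (SE 0.48, adjusted p = 3.57e-08) in the third and 3.35 (SE 0.50, adjusted p = 3.49e-10) in the fourth comparison. From the recovered reads the third comparison gave 2.92 for IL6, and 3.54 without library R1. In the second comparison, of set A with set S, IL6 was not called, at 1.07 (SE 0.82, adjusted p = 0.758) in the authors' deposited table.

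LIF, which holds embryonic stem cells undifferentiated and acts on many tissues, had at least 1117 reads in every library. LIF had 1726 and 1970 normalised reads in set B, 1314 and 1396 in set A, 2478 and 2380 in set R and 1730 and 1572 in set S. Set R was the highest and set A the lowest, each without overlap with the others, while B and S overlapped. The authors' deposited table calls LIF lower in the third comparison, at -0.40 on the log2 scale (SE 0.16, adjusted p = 0.0409), and not in the fourth, at 0.13 (SE 0.18, adjusted p = 0.646). With the authors' deposited fold changes centred on the median gene, the third comparison gave -0.24 (adjusted p = 0.267), and over all rows with a p-value the adjusted p was 0.0593, so the call on LIF ends in both cases. In the first comparison LIF had the smallest p of the 8 genes, at -0.84 (SE 0.30, unadjusted p = 0.0056), and an adjusted p of 0.919 in the authors' deposited table.

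Of the 2 ligands of IL1R1, IL1A was called higher and IL1B lower against set R. IL1A, which is active as the full-length protein, had 104 and 103 normalised reads in set B, 66.0 and 31.3 in set A, 49.7 and 46.5 in set R and 27.5 and 19 in set S. Its B libraries were nearly equal and above the other 6. The authors' deposited table gives IL1A 1.11 (SE 0.45, adjusted p = 0.0479) in the third and 2.12 (SE 0.52, adjusted p = 0.000323) in the fourth comparison. Adjusted over all rows with a p-value, the authors' deposited p for IL1A in the third comparison became 0.0694 and the call ended. The R mean of IL1A was 2.07-fold above the S mean, untested.

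IL1B, which is made as an inactive precursor and cut by caspase 1, had 1433 and 1274 normalised reads in set B, 1971 and 681 in set A, 1942 and 2293 in set R and 1343 and 1011 in set S. Both R libraries lay above both B and both S libraries, sets B and S overlapped, and the A libraries stood 2.89-fold apart. In the authors' deposited table the log2 fold change of IL1B was -0.64 (SE 0.17, adjusted p = 0.000958) in the third and 0.17 (SE 0.21, adjusted p = 0.579) in the fourth comparison. The R mean of IL1B was 1.80-fold above the S mean, and that of LIF 1.47-fold above it. Set B was thus below R and overlapped S for both genes.

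Within sets, the spread of the 10 genes was large in set A. A1 exceeded A2 by 5.49-fold for CCL5, by 2.89-fold for IL1B and by 2.11-fold for IL1A in normalised reads, and A2 exceeded A1 by 2.68-fold for CXCL3. Over all genes with recovered reads, the log2 ratio of A1 over A2 lay between -1.24 and 1.67 for the middle 90%. CCL5 and CXCL3 thus lay outside that range and IL1B and IL1A inside it. In set R the same range was -0.67 to 0.91, and IL6, at 1.06, and CXCL3, at -1.20, lay outside it. In set B no gene of the 8 differed by more than the 1.76-fold of CXCL8. That log2 ratio, 0.81, lay outside the narrower range of set B, -0.60 to 0.67.

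**Figure D3:**
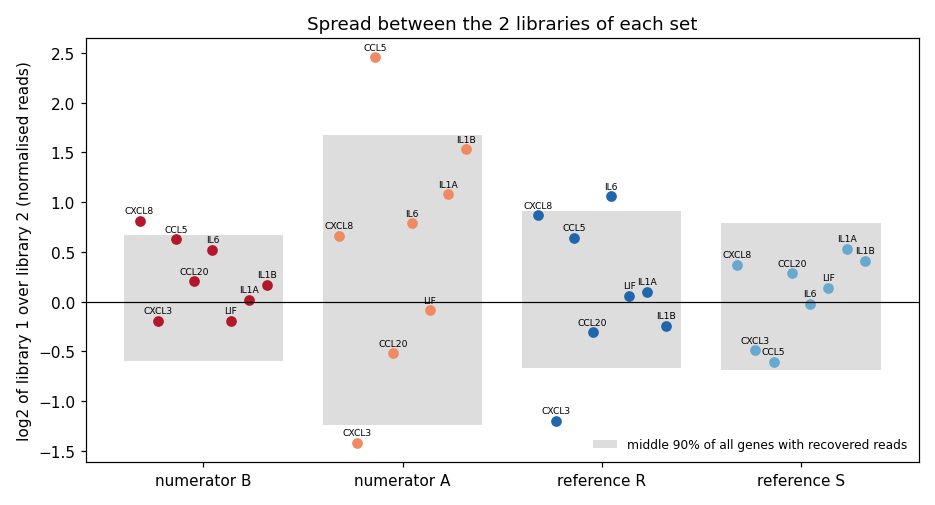
Log2 ratio of the normalised reads of library 1 over library 2 of each set (numerators B and A left, references R and S right) for 8 genes, with grey bars for the 5th to 95th percentile of all genes with recovered reads. Set A has the widest bar, -1.24 to 1.67, and CCL5 lies above it.

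Levels in sets A and B were also set side by side on the common scale, though no deposited comparison joins them and no test was made. The B mean was 19.9-fold above the A mean for CXCL8, 12.6-fold for CCL5, 5.01-fold for IL6, 2.38-fold for CXCL3 and 2.13-fold for IL1A. For CCL20 it was 1.73-fold above and for LIF 1.36-fold, each without overlap, and for IL1B 1.02-fold with overlapping libraries.

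The pathways around these genes were read from 6 lists of 129 genes in all. In the third comparison 40 of 77 tested list genes were called higher and 5 lower, and in the fourth 42 of 77 higher and 7 lower. The shares over all tested genes were 14.8% higher and 16.1% lower in the third, with 17.2% higher and 17.5% lower in the fourth. In the first and the second comparison 0 of 64 and 0 of 60 were called.

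**Figure D4:**
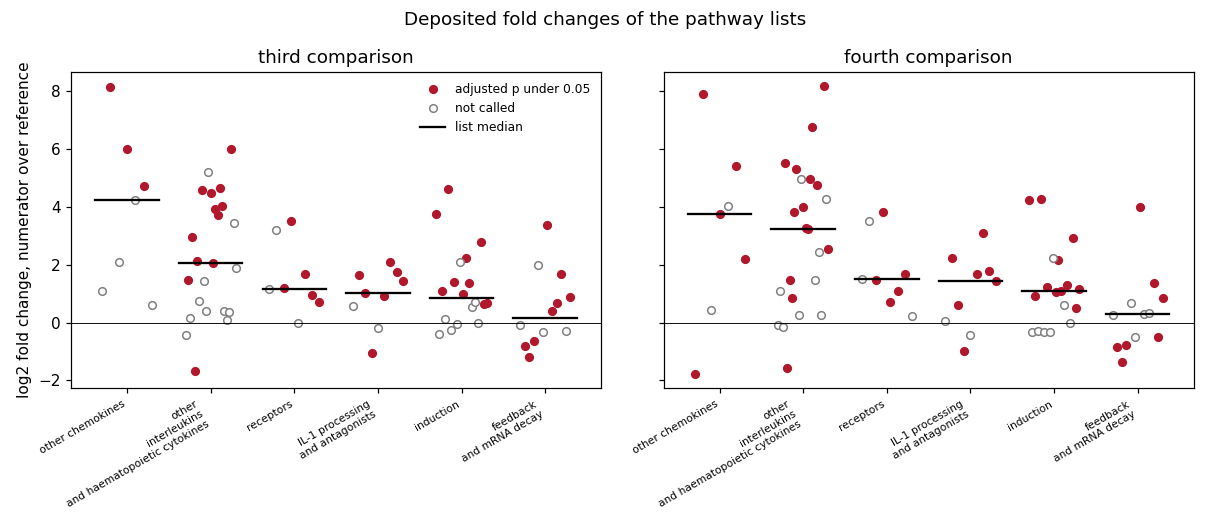
Deposited log2 fold changes, numerator over reference, of the tested genes of 6 pathway lists in the third (left) and the fourth (right) comparison. Filled points have an adjusted p under 0.05, open points do not, and bars are list medians of the fitted values, which for genes of at most 3 reads in a set give no size; genes of the receptor, IL-1 processing and induction lists lie mostly above 0.

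Other chemokines were scarce, with 7 of 31 tested. In the third comparison 3 were called higher and 0 lower, and in the fourth 4 higher and 1 lower. All genes called higher lay below 2 CPM in that comparison. An adjustment over genes of at least 2 CPM therefore does not test them, and 0 were called higher in each. The list median was 2.69 on the log2 scale in the third comparison and 2.46 in the fourth with genes of at most 3 reads in a set put at their bound, and 4.23 and 3.74 as fitted, against 0.09 and 0.08 over all tested genes. CCL2, the monocyte attractant, was the gene called lower. It had 34.0 and 23.9 normalised reads in set B, 417 and 13.8 in set A, 17.2 and 9.79 in set R and 97.4 and 96.2 in set S. The authors' deposited table calls CCL2 lower in the fourth comparison, at -1.77 (SE 0.51, adjusted p = 0.00283). CXCL16, a membrane-bound chemokine, was called higher in the fourth comparison, at 2.20 (SE 0.75, adjusted p = 0.0137), and in the third stood at 0.62 (SE 0.62, adjusted p = 0.505) in the authors' deposited table. The other genes called higher were CCL3, CCL24 and CXCL11, named after their values were seen. CCL24, an eosinophil attractant, had 46 and 38 reads in set B and 0 in all R and S libraries, so no fold is given.

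Of 23 tested other interleukins and haematopoietic cytokines, 11 were called higher and 1 lower in the third comparison, and 13 higher and 1 lower in the fourth. An adjustment over genes of at least 2 CPM leaves genes below that level untested, and 7 were called higher in each. With genes of few reads at their bound, the list median was 2.07 in the third comparison and 2.46 in the fourth, where the fitted median of the fourth was 3.23. IL32, a cytokine found in humans and not in mice, had 1091 and 933 reads in set B, 89 and 92 in set A, 92 and 73 in set R and 97 and 127 in set S. The authors' deposited table gives IL32 3.94 (SE 0.22, adjusted p = 1.03e-69) in the third and 3.23 (SE 0.23, adjusted p = 2.05e-40) in the fourth comparison. IL36B, an IL1 family member of epithelia, stood at 4.03 and 4.74, IL24 at 2.07 and 3.26, and IL12A, the p35 subunit of IL12, at 2.14 and 1.49 in the same deposited columns, and all of these were called. IL11, an IL6 family cytokine linked to fibrosis, was the gene called lower in each. IL11 had 439 and 381 reads in set B, 1519 and 818 in set A, 2402 and 1012 in set R and 1187 and 1337 in set S. The authors' deposited table gives IL11 -1.68 (SE 0.25, adjusted p = 3.25e-10) in the third and -1.56 (SE 0.20, adjusted p = 2.64e-13) in the fourth comparison.

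Receptors of the 10 genes were called higher in 5 of 8 tested cases in the third and in 5 of 8 in the fourth comparison, and none was lower. Adjusted over all rows with a p-value, the count of the fourth comparison was 3, without IL1RAP and IL1R2. The list median was 1.17 in the third comparison and 1.5 in the fourth. IL6ST, the signal-transducing chain shared by IL6 and LIF, was called higher in both, with deposited values by the authors of 0.94 (SE 0.17, adjusted p = 8.02e-07) in the third and 1.69 (SE 0.23, adjusted p = 9.53e-12) in the fourth comparison. IL6R, the chain that binds IL6, stood at 1.67 and 1.08, and IL1R1, the receptor of IL1A and IL1B, at 1.19 and 1.48 in the deposited table, all called. LIFR was called in the third comparison only, at 0.72 (SE 0.23, adjusted p = 0.00778), and IL1RAP, the accessory chain of IL1R1, in the fourth only, at 0.70 (SE 0.29, adjusted p = 0.0469), in the authors' deposited table. The difference between comparisons was not tested for either. IL1R1 had 458 normalised reads in A1 and 176 in A2, against 155 and 141 in set R and 139 and 97.4 in set S. Both A libraries thus lay above all R and S libraries.

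Genes of IL-1 processing and its antagonists were called higher in 6 of 9 cases and lower in 1 against each reference set, with list medians of 1.01 and 1.44. NLRP1, an inflammasome sensor, had 4393 and 2982 reads in set B, 3552 and 1228 in set A, 1456 and 1229 in set R and 1133 and 1067 in set S. The authors' deposited table gives NLRP1 1.76 (SE 0.16, adjusted p = 3.5e-26) in the third and 1.79 (SE 0.18, adjusted p = 3.64e-21) in the fourth comparison. CASP1, the protease that cuts the IL1B precursor, stood at 1.63 (SE 0.25) and 2.22 (SE 0.28), and NLRP3, another inflammasome sensor, at 1.43 (SE 0.28) and 1.44 (SE 0.27), in the columns of the authors' deposited table for the third and the fourth comparison. CASP4, a caspase that senses lipopolysaccharide, stood at 1.01 and 0.61, and IL18BP, a decoy that binds IL18, at 0.91 and 1.69 in those columns. The gene called lower in each was GSDMD, named after its values were seen. The authors' deposited table gives GSDMD, which forms the pore of pyroptosis, -1.05 (SE 0.21, adjusted p = 8.9e-06) in the third and -0.99 (SE 0.23, adjusted p = 0.000165) in the fourth comparison. In set B, IL1B itself was called lower than in set R and not called against set S.

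Of 18 genes of induction, 10 were called higher in the third comparison and 11 in the fourth, and 0 were lower in each. The list medians were 0.84 and 1.08. RELB, an NF-kB subunit of the non-canonical pathway, had 1382 and 878 reads in set B, 242 and 118 in set A, 250 and 155 in set R and 143 and 160 in set S. The authors' deposited table gives RELB 2.80 (SE 0.21, adjusted p = 5.01e-36) in the third and 2.94 (SE 0.23, adjusted p = 1.39e-34) in the fourth comparison. NFKB2, the partner of RELB, stood at 2.21 (SE 0.21) and 2.16 (SE 0.20), and FOS, an AP-1 subunit, at 4.61 (SE 0.50) and 4.25 (SE 0.51), in the same columns of the authors' deposited table. IRF1, an interferon-inducible factor, stood at 1.40 (SE 0.20) and 1.25 (SE 0.22) in the same columns. ATF3, a stress-induced factor, had 2391 and 1348 reads in set B, 241 and 57 in set A, 295 and 69 in set R and 104 and 101 in set S. The authors' deposited table gives ATF3 3.74 (SE 0.82, adjusted p = 4.44e-05) in the third and 4.22 (SE 0.24, adjusted p = 9.36e-66) in the fourth comparison.

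Feedback inhibitors and regulators of mRNA decay were mixed. In the third comparison 5 of 12 were called higher and 3 lower, and in the fourth 3 higher and 4 lower. The list medians were 0.16 and 0.29. TNFAIP3, a deubiquitinase that restrains NF-kB, had 3400 and 1543 reads in set B, 245 and 185 in set A, 414 and 185 in set R and 149 and 163 in set S. The authors' deposited table gives TNFAIP3 3.37 (SE 0.56, adjusted p = 4.53e-08) in the third and 4.00 (SE 0.26, adjusted p = 2.23e-49) in the fourth comparison. ZFP36, which promotes decay of cytokine mRNAs with AU-rich elements, was called higher in each, at 1.68 (SE 0.28) and 1.36 (SE 0.25) in the deposited table. The authors' deposited table also calls ZFP36L2, of the same protein family and named after its values were seen, higher in each, at 0.87 (SE 0.24) and 0.85 (SE 0.25). ZFP36L1, also of that family and named after its values were seen, went the other way in the authors' deposited table. It stood at -0.29 (SE 0.15), not called, in the third comparison and at -0.49 (SE 0.17), called lower, in the fourth. The family was thus not uniformly higher. Proteins outside that family that bind AU-rich elements were lower in both comparisons. HNRNPD stood at -1.19 (SE 0.16) and -1.36 (SE 0.18), ELAVL1 at -0.81 (SE 0.16) and -0.85 (SE 0.18), and KHSRP at -0.64 (SE 0.15) and -0.78 (SE 0.17), all called lower in the authors' deposited table.

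Some cell type markers were called beside these genes, and others were not. Of 12 leukocyte markers, 9 had reads recovered for all sets, with summed normalised reads of 800 to 1281 in set B, 163 to 176 in set A, 113 to 190 in set R and 170 to 189 in set S. ITGAM, an integrin of myeloid cells, made up most of the sum in set B, with 859 and 409 reads there, 16 and 1 in set A, 38 and 4 in set R and 1 and 2 in set S. CD14 had 46 and 21 reads in set B, 8 and 1 in set A, 2 and 2 in set R and 6 and 5 in set S. Of 6 tested leukocyte markers, 3 were called higher in the third comparison and 2 in the fourth. MS4A1 and TYROBP had no row in any comparison and NKG7 none in those of set B, PTPRC held 1 and 0 reads in set B, and CSF1R, the macrophage growth factor receptor, held 65 and 64 reads in set B against 120 and 67 in set R and 108 and 113 in set S. Of the tested epithelial markers, KRT8 and KRT18 were called lower against each reference set, and of the fibroblast markers COL1A1 was. The other tested markers of both lists were not called. Among them COL1A2, COL3A1, PDGFRA and PDGFRB had fitted values above 0, except PDGFRB in the fourth comparison, at -0.07. Of 4 tested endothelial markers, 2 were called higher in the third comparison, VWF and TEK, and 1 in the fourth, TEK. In set B VWF had 15 and 13 reads and TEK 41 and 24. KDR was not called, at 0.33 and 0.50, and PECAM1 was not called, at -0.80 and -0.79. Of 3 tested adipocyte markers, 0 were called in the third comparison and 1, PLIN1, was called higher in the fourth. PLIN1 had 16 and 8 reads in set B, 1 and 1 in set A, 0 and 2 in set R and 1 and 0 in set S. The part of these cell types in the chemokine values was not tested. In bulk libraries a change in the share of a cell type cannot be told apart from a change in the RNA per cell.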

How the data were processed

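RNA sequencing libraries had been compared by the authors in a single deposited table of 28 columns, 7 for each of 4 comparisons. Per the file headers, each gives the identifier and symbol, then the base mean, log2 fold change, standard error, test statistic and p-value, raw and adjusted. Base means (mean normalised reads per library), standard errors and test statistics are scores computed by the authors. The log2 fold changes and the p-values are used as the authors deposited them. Aligner, counter, strand setting and build: not given in the sources used here. Per the labels, the study selected genes whose log2 fold change was above 1 or below -1 at an unadjusted p under 0.05.

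No column could be tied to a sample, so no test of counts was run and every test is the authors'. Whole reads were recovered from the base means: the steps of 4 libraries were found from the lowest rows of each comparison, the side of each library from the fold change of rows with reads in it alone, and for each gene the whole reads were sought that gave its base mean and its fold change within 0.001 (log2) at the dispersion implied by its standard error. The largest gap among 12935 genes was 8.53e-05 and the median gap 7.58e-07. On simulated tables of 200 genes, 97.5% to 99.0% of genes were recovered from the first, the third or the fourth comparison alone. The second comparison served only to check reads found elsewhere, so its recovery was not tested. Set B was put on the common scale through set R, and through set S its size factors differed by 1.02-fold and 1.03-fold. Ratios of recovered reads are descriptions. The libraries of each set differed by more than counting noise, with chi-square over degrees of freedom of 5.44 in set B, 52.0 in set A, 9.27 in set R and 10.4 in set S, and none were merged.

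The 10 genes and the lists were chosen with earlier results of these data known. Named list genes were the 4 with the smallest deposited p in the third and the 4 in the fourth comparison among genes of at least 2 CPM of the summed base means; exceptions are marked. A set of at most 3 reads counts as few reads. Intervals are 95% from the deposited standard error. Alternatives were centring on the median gene, adjusting over other sets of rows, the selection in the labels and leaving out libraries. Python 3.11.15, numpy 2.4.6, pandas 2.3.3, scipy 1.17.1 and matplotlib 3.10.9 were used.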

Additional observations from a re-analysis of the deposited data

Results flagged for a closer look

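CXCL8 was set apart because every library of set B lay above both libraries of set S while every library of set A lay below both. The authors' deposited table gives log2 fold changes of 3.48 (SE 0.26, adjusted p = 1.81e-39) in the fourth comparison, of set B with set S, and of -0.80 (SE 0.41, adjusted p = 0.547) in the second, of set A with set S. The difference between these comparisons was not tested, the second value was not called, and both comparisons share the libraries of set S. No set has the 4 libraries that a search for outlying libraries needs.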

How the results depend on the processing

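The number called higher, 4 in the third comparison and 4 in the fourth, stayed 4 under each alternative but 1: adjusted over all rows with a p-value it was 3 in the third comparison, without IL1A. The 2 called lower in the third became 1 after centring on the median gene, 1 when adjusted over all rows with a p-value, and 0 under the selection stated in the labels. Under that selection the pathway lists gave 3 genes higher in the first comparison, 4 higher in the second, 3 lower in the third and 3 lower in the fourth. Of all genes it took 406 as higher and 37 as lower in the first comparison, 730 and 282 in the second, 1239 as lower in the third and 1922 as lower in the fourth. The number called higher in the first comparison, 5 as deposited, was 8 after centring, 8 when adjusted over genes of at least 2 CPM and 2 over all rows. The adjustment over genes of at least 2 CPM leaves genes below that level untested. It left 0 other chemokines and 7 other interleukins and haematopoietic cytokines called higher in each of the third and the fourth comparison. Over all rows, 3 receptors were called higher in the fourth. Leaving out 1 library at a time, an alternative chosen after seeing the data, could be done for ratios of recovered reads and not for the deposited tests. Log2 ratios then ran from 3.43 to 4.39 for CXCL8, from 4.95 to 5.65 for CCL5, from 2.48 to 3.54 for IL6 and from 1.06 to 1.16 for IL1A in the third comparison. Placing set B through set S, also chosen after seeing the data, left IL1A at 102 and 100 normalised reads. No paired analysis was possible because no column carries a replicate number. Depth limits CXCL1 and CXCL2, with at most 2 reads a set.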

Other observations

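Library A1 stood apart from A2 in several list genes, named here after their values were seen. CCL2 had 638 reads in A1 and 11 in A2, IL1RN, the IL1 receptor antagonist, had 63 and 2, IL36B had 105 and 5, and IL1R2, a decoy receptor, had 38 and 4. The size factor of A1 was 1.53 and that of A2 0.80. PECAM1, an endothelial marker, had 183 reads in A1 and 7 in A2, and PDGFRB, a receptor of fibroblasts and pericytes, had 1042 and 151. In the first comparison the authors' deposited table gives CCL2 a log2 fold change of 3.99 (SE 1.81) with an adjusted p of 1.0.

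Several cytokines had reads mainly in set B and few elsewhere, and were also named after their values were seen. OSM, an IL6 family cytokine of myeloid cells, had 59 and 43 reads in set B, 1 and 0 in set A, 2 and 0 in set R and 0 and 0 in set S. IL33, an alarmin of the IL1 family, had 87 and 64 reads in set B, 10 and 4 in set A, 7 and 7 in set R and 2 and 3 in set S. IL23A, the p19 subunit of IL23, had 80 and 45 reads in set B, 7 and 0 in set A, 6 and 1 in set R and 6 and 2 in set S. CSF2, the growth factor GM-CSF, had 66 and 24 reads in set B, 11 and 0 in set A, 14 and 1 in set R and 1 and 1 in set S.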
